A study of Mus musculus with 12 samples.

Results

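Fbn1, Fbln2, Thbs3, Fn1 and Bcam encode proteins of the extracellular matrix or of the cell surface that binds it, and their mRNAs carried cytosines that stayed unconverted in RNA bisulfite sequencing of mouse neural stem cells (NSCs). The genes were chosen by the levels of such cytosines in earlier results of these data, and the sites were then selected on their coverage, unconverted reads and level in these libraries. A site is a cytosine with a coverage of at least 20, at least 6 unconverted reads and a level of at least 10% in both replicates of at least 1 condition. Of the 7136 cytosines listed for the 5 genes in any library, 9 passed, among 6462 passing sites in all, some of them outside annotated genes. All 9 were isolated, which means that no other passing site lay within 25 bases on the same strand, as was true of 2354 of the 6462.

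RNA 5-methylcytosine (m5C) resists bisulfite, so the methylation level of a cytosine is the share of its reads that still show C. Wild-type NSCs from the subventricular zone of male C57BL/6 mice aged 6 to 8 weeks were grown on poly-ornithine and laminin with EGF and bFGF for 4 days, with new medium on day 2. The medium held 1.5 μM (low folate), 10 μM (medium) or 80 μM (high) folic acid, and poly(A) RNA was taken from whole cells (total mRNA: LF, MF, HF) or from pooled gradient fractions with more than 3 ribosomes (polysome mRNA: pLF, pMF, pHF), with 2 replicates in each of the 6 groups. The replicates are biological duplicates per the study's methods, and the NSCs of all groups shared the same genotype and growth factors.

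Fibrillin-1, the product of Fbn1, is the main subunit of microfibrils, the thin filaments on which elastic fibres are laid down and which hold latent TGF-β. Fibulin-2, from Fbln2, is a secreted glycoprotein that binds fibrillin, fibronectin and basement membrane proteins. Thrombospondin-3, from Thbs3, is a pentameric matricellular glycoprotein, and fibronectin, from Fn1, is assembled by integrins into fibrils that carry many other matrix proteins. Bcam encodes basal cell adhesion molecule (Lutheran), a surface receptor for laminin chain α5. In the adult subventricular zone the stem cells touch matrix rich in laminin and other glycoproteins.

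The sequences around the 5 sites that passed in at least 1 polysome group are given here because the results rest on them. Each is the transcript strand of the GRCm38 (mm10) genome from RefSeq, 5′ to 3′, with the methylated cytosine in capitals.
Fbn1, chr2:125321608-125321636, minus strand: tgtgccccactgagCcagatggtaagtct
Fbln2, chr6:91268531-91268559, plus strand: cccacagatgtgaaCgagtgcgagactcg
Thbs3, chr3:89217866-89217894, plus strand: actggccccgatccCtccagcagaggtca
Fn1, chr1:71593073-71593101, minus strand: ggcagtggtcatttCagatgcgattcatc
Bcam, chr7:19756548-19756576, minus strand: actttgggcatcatCggaggaccggctct

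Positions in genes follow GENCODE vM21. The Fbn1 site (position 125321622) was the 1st base of codon 2105 in exon 50 of 65, with 6 bases of the exon left after it, so the letters that follow run into the intron. The Fbln2 site (91268545) was the 3rd base of codon 982 in exon 15 of 18, with 7 bases of the exon before it. The Thbs3 site (89217880) lay in the coding part of exon 3 of 23, at codon 161. Its sequence reads ctcca from the methylated base on, the motif known for the methyltransferase NSUN6. Read on the transcript strand from the methylated cytosine, CTCCA was found at 35 of the 6462 passing sites (0.542%), at 21 of the 2354 isolated ones (0.892%) and at 0.746% of the cytosines of MF replicate 1 with a level under 5%. Of the passing sites, 2590 passed in the total mRNA libraries labelled HF and in no other group, as did 2075 of the isolated ones. These libraries are set apart below, and the share of CTCCA without such sites was not counted. The Fn1 site (71593087) was the 3rd base of codon 2333 in exon 42 of 46, and counted as 3′ untranslated in 1 other transcript. The Bcam site (19756562) lay in the 3′ untranslated region, in the last of 15 exons.

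Each library listed 797260 to 2071190 cytosines with at least 1 unconverted read and a coverage of at least 10, at a median coverage of 335 to 920. The libraries labelled HF stood apart from the other total mRNA libraries, and their files do not hold the counts of the HF columns in the site list published with the data. Coverage matched that list, within 2% or 2 reads, at 98.1% to 100% of its sites in the other 10 libraries, but at 5.38% and 1.14% in the libraries labelled HF, and at neither the Fbln2 nor the Thbs3 site. What these libraries are could not be settled here, so their values are given under their label and are not read as an effect of high folate. Over the coverage of 4815 genes they correlated with LF and MF at r = 0.814 to 0.850, while LF and MF correlated among themselves at 0.992 to 0.996. They also held 3167 of the sites passing in a group, more than any other group, against 1795 in LF and 1999 in MF. Comparisons of total with polysome mRNA were therefore made at low and medium folate, and high folate is given beside them. Of 12 neural stem cell markers, 11 were listed in every library. Per 1000000000 of a library's summed coverage, these markers summed to 18512 to 35266, lowest in the libraries labelled HF (18512 to 20468), against 2178 to 3985 for 6 astrocyte, 2159 to 6586 for 8 oligodendrocyte lineage (2159 to 2276 in the libraries labelled HF), 2659 to 8143 for 10 fibroblast and mural, 493 to 910 for 7 neuronal and 50.1 to 96.7 for 4 ependymal markers, and at most 36.1 for 5 endothelial and 204 for 6 microglial markers. Of the 6 microglial markers only Cx3cr1 was listed, apart from Ptprc in pHF replicate 2. Among the polysome libraries, pLF replicate 1 stood apart in gene coverage, at r = 0.898 to 0.958 with the others, which correlated among themselves at 0.964 to 0.984. pHF replicate 2 also stood apart, with 38353 cytosines at a level above 90%, against 1102 to 3465 in the other libraries.

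Polysome mRNA carried higher levels than total mRNA at the Thbs3, Fbln2, Fbn1 and Fn1 sites, with no overlap between the 4 libraries of each fraction at low and medium folate. The difference was 30.3 percentage points at Thbs3, 20.6 at Fbln2, 13.1 at Fbn1 and 3.95 at Fn1. These values chose the genes, so they are a description and no test is given. The same absence of overlap, with polysome mRNA higher, was found at 36.7% of the 656 passing sites covered by 20 reads in the 8 libraries, and at 50% of the 228 isolated ones. These sets include sites that passed only outside the 8 libraries. Some were near 0 in both fractions, such as a Sulf1 site with 0.0595% in total and 0.176% in polysome mRNA.

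**Figure D1:**
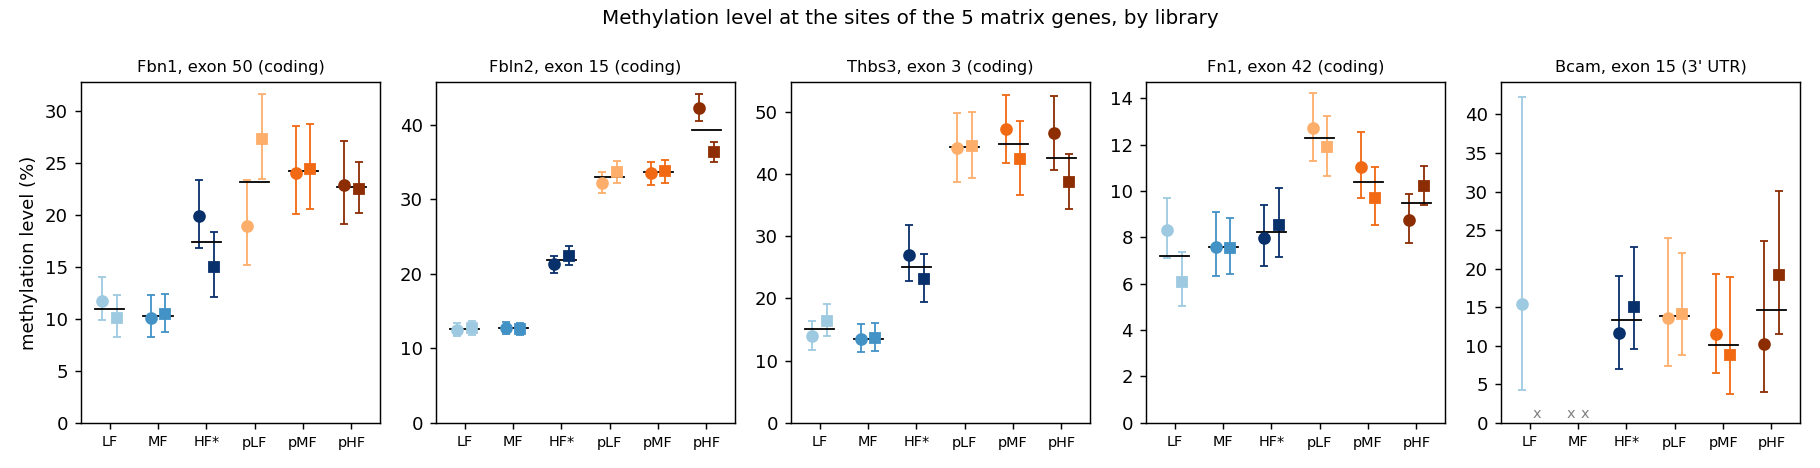
Methylation level in percent (y axis, from 0) at the site of each gene in the 12 libraries, by group. Circles are replicate 1, squares replicate 2, bars the Wilson 95% counting interval, black lines the mean of both replicates, x a library in which the site was not listed, and HF* the libraries labelled HF. At Thbs3 the 4 libraries of pLF and pMF lie between 42.5% and 47.2%, all above the 4 of LF and MF, which lie between 13.4% and 16.4%.

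The total mRNA libraries showed the Thbs3 site methylated at 13.9% and 16.4% (LF), 13.4% and 13.6% (MF) and 27.0% and 23.1% (labelled HF). The polysome libraries showed 44.2% and 44.5% (pLF), 47.2% and 42.5% (pMF) and 46.5% and 38.7% (pHF). Polysome mRNA was thus higher than every total mRNA library, and the folate groups of polysome mRNA overlapped. The mean was 14.3% ± 1.37 (SD, n = 4) in LF and MF and 44.6% ± 1.96 (SD, n = 4) in pLF and pMF, a ratio of 3.11. The coverage of the site was 259 to 882, and the Wilson 95% intervals, which cover counting error only, ran from 36.6% to 48.6% in the library with the fewest reads, pMF replicate 2.

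At the Fbln2 site, total mRNA gave 12.5% and 12.7% in LF and 12.8% and 12.6% in MF, and the libraries labelled HF gave 21.3% and 22.4%. The polysome libraries gave 32.3% and 33.7% (pLF), 33.5% and 33.8% (pMF) and 42.3% and 36.4% (pHF). The LF and MF libraries differed by less than their counting intervals, and both pHF libraries were above all pLF and pMF libraries. Between pHF and pMF the means differed by 5.72 points, with SDs of 4.21 and 0.182 (n = 2 each). Such an absence of overlap with pHF higher was found at 15.8% of the 903 passing sites covered in both groups. This was the site with the highest coverage of the 9, at 2996 to 7084. The mean was 12.6% ± 0.0987 (SD, n = 4) in LF and MF and 33.3% ± 0.696 (SD, n = 4) in pLF and pMF, a ratio of 2.63.

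At the Fbn1 site, LF gave 11.8% and 10.1%, MF 10.1% and 10.4%, and the libraries labelled HF 20.0% and 15%. pLF gave 19.0% and 27.4%, pMF 24.1% and 24.5%, and pHF 22.9% and 22.6%. The pLF replicates differed by more than any other pair of replicates at this site and spanned the values of pMF and pHF. The mean was 10.6% ± 0.783 (SD, n = 4) in LF and MF and 23.7% ± 3.50 (SD, n = 4) in pLF and pMF, a ratio of 2.23, at a coverage of 353 to 1104. The libraries labelled HF lay between the fractions, and replicate 1 of them was above pLF replicate 1. The study reported this site as less methylated in HF than in MF in total mRNA, the opposite of the values in the libraries labelled HF.

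Of the 4 sites listed in every library, the Fn1 site had the lowest group means, and it passed the threshold in pLF alone. LF gave 8.31% and 6.08%, MF 7.60% and 7.53%, and the libraries labelled HF 7.97% and 8.52%. pLF gave 12.7% and 11.9%, pMF 11% and 9.71%, and pHF 8.76% and 10.2%. Polysome levels at low folate were thus above those at medium folate in both replicates, by 1.91 points in the mean. This pattern between pLF and pMF was found at 20.1% of the 1394 passing sites covered in both groups. Since the site passed through pLF alone, its choice favoured high values in pLF. The difference between the fractions was 5.09 points at low folate, 2.81 at medium folate, and 1.24 between pHF and the libraries labelled HF. Its coverage was 1373 to 5041.

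The Bcam site was thinly covered, and 3 of its 12 libraries did not list it. LF replicate 1 had 2 unconverted reads of 13, and the site was not listed in LF replicate 2 or in MF, where no other cytosine within 25 bases was listed either. The libraries labelled HF gave 11.7% and 15%, pLF 13.6% and 14.2%, pMF 11.5% and 8.77%, and pHF 10.3% and 19.1%. With 39 to 113 reads in these 8 libraries the counting intervals all overlapped, so a difference between folate concentrations was not detectable at this depth. No comparison with total mRNA at low or medium folate could be made.

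The folate concentrations were compared by the same absence of overlap, again as a description. Thbs3 alone of 4 covered sites was higher in LF than in MF without overlap, by 1.63 points, as were 28.6% of all passing sites covered in both groups and 18.5% of the isolated ones. All 4 were higher in the libraries labelled HF than in MF, by 0.681 points at Fn1 to 11.5 at Thbs3, a pattern found at 81.1% of all and 78.5% of isolated sites. The rule itself favours these shares, since 2590 passing sites, 2075 of them isolated, passed in the libraries labelled HF alone. Since the counts of these libraries are not those of the published HF columns, this direction is not read as one between high and medium folate. Fn1 was higher in pLF than in pMF without overlap (21.3% of isolated sites), and so was Bcam, at 57 to 106 reads and within its counting intervals. Both sites passed the rule in pLF and not in pMF, so their choice favoured this direction. Fbln2 was higher in pHF than in pMF (26.1% of isolated sites), and Fbn1 was lower by 1.55 points (-1.55; 8.31% of all and 10.9% of isolated sites). With the same limit, 4 of 5 covered sites were higher in pHF than in the libraries labelled HF without overlap, by 17.6 points at Thbs3, 17.5 at Fbln2, 5.27 at Fbn1 and 1.24 at Fn1, against 36.6% of all and 32% of isolated sites. Here the rule works against such a share at sites that passed in the libraries labelled HF alone. As for Bcam, the counting intervals overlapped between LF and MF at Thbs3 and between pHF and pMF at Fbn1. Those of pLF and pMF overlapped at Fn1, except for pLF replicate 1 with pMF replicate 2. At Fbln2 the interval of pHF replicate 2 reached those of pMF.

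Among the 228 isolated sites covered in the 8 libraries of low and medium folate, the median level was 6.24% in total and 12.6% in polysome mRNA. Their median difference was 5.78 points, with quartiles of 2.63 and 9.46. In order of the difference Thbs3 was at place 1 of 228, Fbln2 at place 9, Fbn1 at place 31 and Fn1 at place 153. The ratio of polysome to total level gave another order. It was 3.11 at Thbs3, 2.63 at Fbln2, 2.23 at Fbn1 and 1.54 at Fn1. Some other sites were above Thbs3, such as Csnk2a1 (6.67), Pgm2 (5.11) and Sorcs2 (4.09). Others were below it, such as Rela (1.80). The genes were chosen by such levels, and the 228 sites include some that passed only outside the 8 libraries. The places are thus a description.

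**Figure D2:**
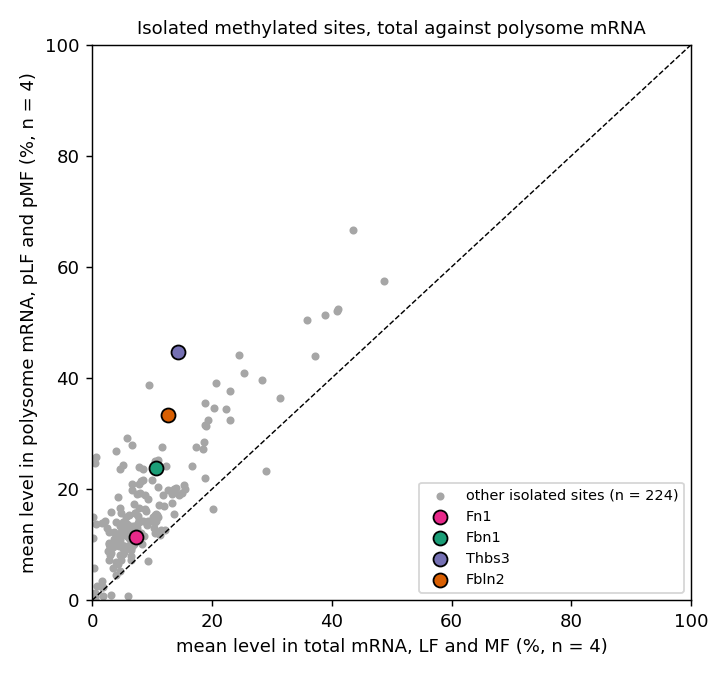
Mean level in total mRNA (LF and MF, n = 4, x axis) against polysome mRNA (pLF and pMF, n = 4, y axis), both in percent, for the 228 isolated passing sites covered in all 8 libraries. The dashed line marks equal levels, grey points are the 224 other sites, and the coloured points of Thbs3, Fbln2, Fbn1 and Fn1 all lie above the line.

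Sites whose levels over the 12 libraries were most like those of the 5 genes were sought among 205 isolated sites. The level of Fbln2 ran most like sites in Fscn1, which encodes an actin-bundling protein (r = 0.990), and Ccdc107 (r = 0.988). The Thbs3 site ran most like a site in Glg1, a Golgi glycoprotein gene (r = 0.980), and like the Fbln2 site (r = 0.963). The Fbn1 site ran most like a site outside the annotated genes on chromosome 19 (r = 0.944) and the Thbs3 site (r = 0.931), and the Fn1 site like sites in Yap1, a transcriptional co-activator (r = 0.906), and Wwc2 (r = 0.841). These points share the libraries and the difference between fractions, and they are given as a description.

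Other cytosines near the sites were mostly lower than the sites themselves. Within 25 bases of the Fbln2 site, 8 other cytosines never exceeded 0.455%, and near the Fbn1 and Fn1 sites the highest values were 0.737% and 0.363%. Around the Thbs3 site 17 cytosines were listed, with a highest value of 2.13%. Near the thinly covered Bcam site the highest was 5.56% and the median 1.49%, and near the Fbln2 site at 91234100 the highest was 6.25%. Over the 11 to 53 exonic windows of each gene seen in all 12 libraries, the share of unconverted reads at cytosines with a level under 5% was 0.0480% to 0.203% in the 5 genes, against 0.0627% to 0.102% over 4778 genes. Over the 4778 genes each pLF and pMF library, at 0.0852% to 0.102%, was above each LF and MF library, at 0.0727% to 0.0754%. The measure was independent of the choice of sites. By limma with Benjamini-Hochberg adjustment, none of the 4778 genes was called different between polysome and total mRNA (0% called). An unadjusted p under 0.05 was found for 740 genes. The planned version, over cytosines listed in all 12 libraries, did call genes, as given at the end, and the version used here was chosen after the data were seen. The differences in log2 odds were 0.59 (SE 0.34) for Fbn1, 0.57 (SE 0.35) for Fn1, 0.21 (SE 0.24) for Fbln2, -0.15 (SE 0.26) for Bcam and -0.38 (SE 0.30) for Thbs3, with adjusted p-values of 0.396 to 0.791. The median over all genes was 0.27.

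The other 4 sites passed in the libraries labelled HF and in no other group. Their sequences are shown because of the letters before the cytosine, which is again in capitals.
Fbln2, chr6:91272094-91272122, plus strand: acagccatagggggCttctgaactccact
Thbs3, chr3:89226363-89226391, plus strand: ccatgcgaggggggCgtctcggcgtattc
Bcam, chr7:19758413-19758441, minus strand: agcagagaaaggggCgccgtaagtgcttg
Fbln2, chr6:91234086-91234114, plus strand: catgcaggagggtgCtgcacctctgccaa
In the libraries labelled HF, the Fbln2 site at 91272108, in the 3′ untranslated region, had levels of 16.3% and 18.2%. The coding Bcam site at 19758427 had 12.9% and 13.6%, and the coding Thbs3 site at 89226377 had 13.6% and 11.3%. The coding Fbln2 site at 91234100 had 20.3% and 12.2%. Coverage in these libraries was 1141 and 847 at the Fbln2 site in the untranslated region, 366 and 257 at Bcam, 176 and 141 at Thbs3 and 123 and 90 at the coding Fbln2 site. The cytosines listed within 25 bases had higher mean coverage in the same libraries. It was 2447 and 2084 near the untranslated Fbln2 site, 750 and 1228 near Thbs3 and 3507 and 5799 near the coding Fbln2 site. Near Bcam it was 1246 in replicate 2, and none was listed in replicate 1. The levels thus rest on a part of the local reads, and the cause was not tested. Lower coverage at the site than nearby was not limited to these libraries. At the untranslated Fbln2 site it was 427 against 1034 in LF replicate 2 and 573 against 1775 in pLF replicate 1. At the coding Fbln2 site the values were closer in pLF replicate 2, at 1007 against 1099. In every library not labelled HF the 4 sites were at 1.72% or less or were not listed, which means no unconverted read or a coverage under 10.

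A run of at least 4 g stood directly before the cytosine in the first 3 of these sequences, with 5, 6 and 4 g, and 1 g stood before the other. Over all genes, gggg (transcript strand, ending at the base before the cytosine) preceded 1499 of the 2590 sites that passed in the libraries labelled HF and in no other group (57.9%). It preceded 22 of the 3872 other passing sites (0.568%) and 0.316% of the cytosines of MF replicate 1 with a level under 5%. Among isolated sites, as all 9 are, it preceded 1493 of 2075 (72.0%) against 0 of 279. None of the 5 sites that passed in a polysome group had such a run.

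**Figure D3:**
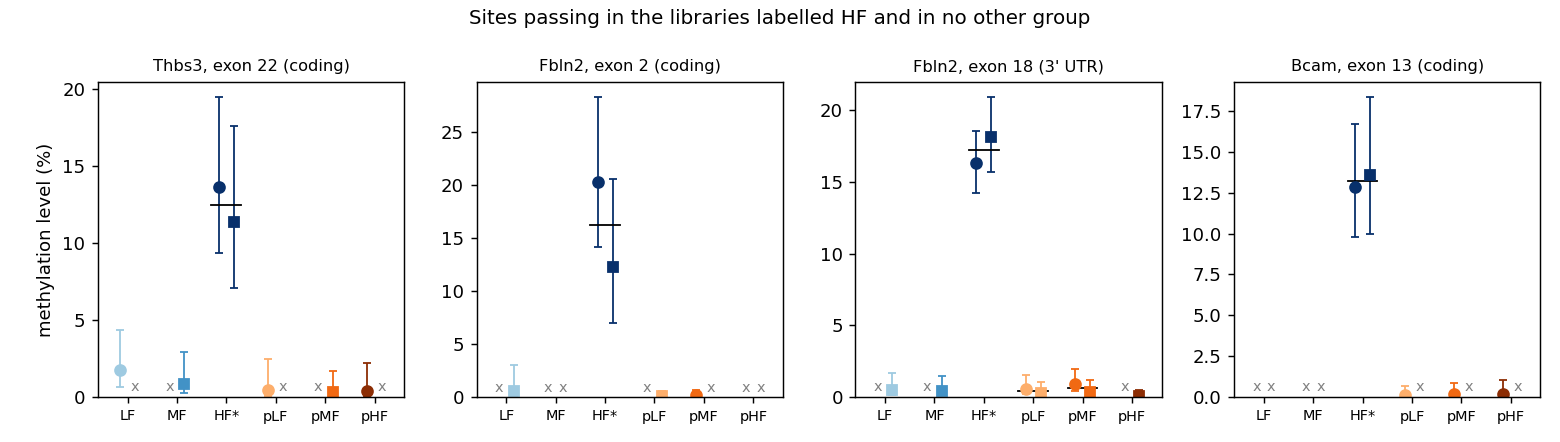
Methylation level in percent (y axis, from 0) at the 4 sites that passed in the libraries labelled HF and in no other group, drawn as in the plot of the other 5 sites (circles and squares are replicates 1 and 2, bars the Wilson 95% counting interval, x not listed). The libraries labelled HF lie between 11.3% and 20.3% and the others at 1.72% or less.

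Just outside the threshold were 2 Fn1 cytosines, at 71586941 with 6.42% and 10.5% and at 71615500 with 10.1% and 6.54% in the libraries labelled HF. Just inside it, the Fn1 site in pLF had 12.7% and 11.9%, and the Thbs3 site of exon 22 had 13.6% and 11.3%. In 4 further cytosines, 2 of Fbn1 and 2 of Fn1, a single library reached 10.6% to 12.4% and its replicate did not reach the threshold.

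The coverage of the 5 mRNAs was then compared, which the choice of sites used through the minimum at each site. For Bcam that minimum bears on the result. Its site at 19756562 passed in the libraries labelled HF and in pLF and lacked coverage in LF and MF, so its coverage is given as a description, with no test. Coverage was averaged over windows of 100 bases of the gene seen in all 12 libraries, put on a log2 scale and centred on the median gene of each library. It is known only at cytosines with at least 1 unconverted read, so deeply covered cytosines are favoured and each library averages its own set. For Fbn1, LF and MF libraries listed 659 to 820 cytosines and pLF and pMF libraries 228 to 324. Only 1 of its 2125 was listed in all 12. The part of this in the values was not tested. In bulk RNA, fewer cells that express a gene and less RNA per cell cannot be told apart. The windows seen in all 12 libraries numbered 16 for Fbn1, 53 for Fbln2, 17 for Thbs3, 24 for Fn1 and 11 for Bcam. Toward the 5′ end of Fbn1, most stretches were listed in LF and MF and not in all pLF and pMF libraries. Such stretches are left out of its value. Of the other 4 genes, Fbn1 was lower in polysome than in total mRNA at low and medium folate, and Fbln2, Thbs3 and Fn1 did not pass the test. By limma over 4815 genes with Benjamini-Hochberg adjustment, 38.7% of genes were called higher and 35.1% lower in this comparison, and 73.8% in either direction, so 1 gene of 4 is below the background.

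**Figure D4:**
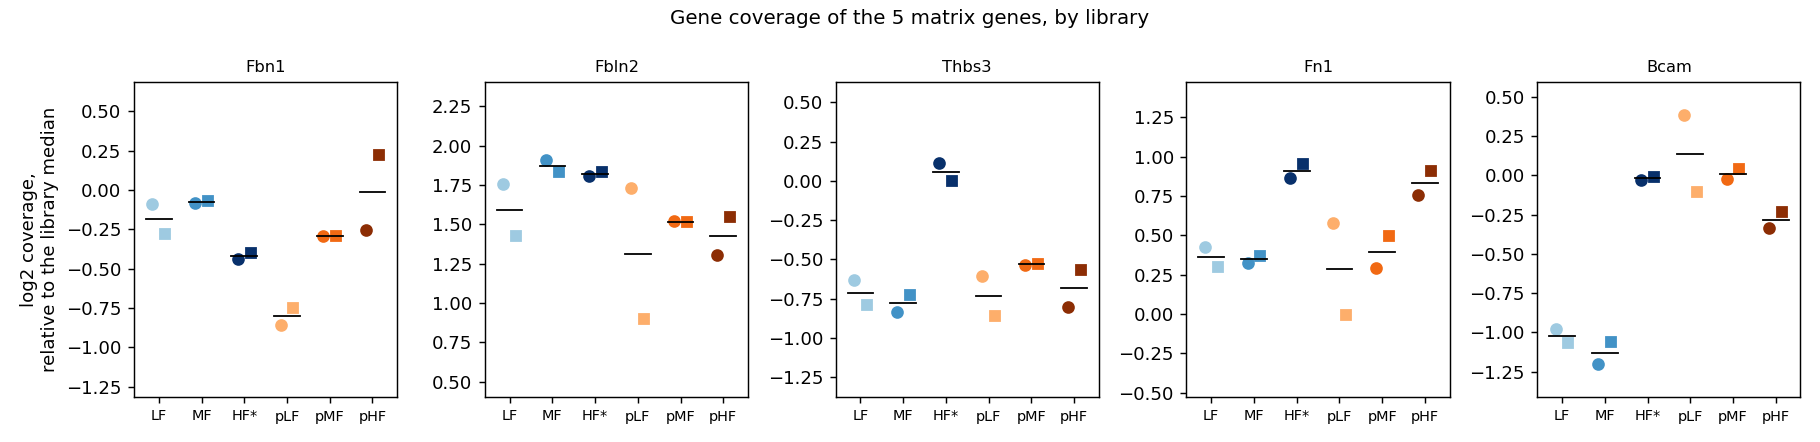
Coverage of each gene on a log2 scale relative to the median gene of the library (y axis; each panel spans 2 log2 units) in the 12 libraries. Circles are replicate 1, squares replicate 2, black lines the mean, and HF* the libraries labelled HF. For Bcam the LF and MF libraries lie between -1.20 and -0.98, below all others.

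Bcam had a log2 coverage relative to the library median of -0.98 and -1.06 (LF), -1.20 and -1.06 (MF) and -0.03 and -0.01 (labelled HF). The polysome values were 0.38 and -0.11 (pLF), -0.02 and 0.04 (pMF) and -0.34 and -0.23 (pHF). LF and MF were thus below every other library. The difference between polysome and total mRNA was 1.15 log2 units (SE 0.10), with 1.16 at low and 1.14 at medium folate. The libraries labelled HF differed from MF by 1.11 and pHF from the libraries labelled HF by -0.27.

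The summed coverage of fibroblast and mural cell markers was also lowest in LF and MF. Per 1000000000 of coverage it was 2659 to 3063 in LF and MF, 7929 to 8143 in the libraries labelled HF, 4054 to 7046 in pLF, 3947 to 4648 in pMF and 5447 to 7774 in pHF, with 6 to 9 of 10 markers listed. Of the defining markers, Dcn and Lum were listed in HF replicate 1 alone and Rgs5 in no library, while Acta2, Tagln and Col1a2 made up most of the sum. Of the 4 markers covered well enough to test in polysome against total mRNA at low and medium folate, 3 were higher on the library-median scale, namely Acta2 (1.77), Tagln (2.12) and Pdgfrb (0.90, limma adjusted p = 3.54e-05), and Col1a2 was lower (-0.56, limma adjusted p = 0.0137). Of the 7 neuronal markers only Tubb3 was tested, and it was higher as well (1.17). Per 1000000000 of coverage, Map2 went the other way, at 285 to 385 in LF and MF and at 107 to 209 in pLF and pMF. Stmn2 went with Tubb3, at 32.4 to 69.6 in LF and MF and at 70.7 to 148 in pLF and pMF. The other neuronal markers were not listed in some or all of these libraries. Between pMF and pHF the sum was higher in pHF while the Bcam coverage was lower there. Their part in the Bcam result was not tested.

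Fbn1 had a log2 coverage relative to the library median of -0.09 and -0.28 (LF), -0.09 and -0.07 (MF), -0.86 and -0.75 (pLF) and -0.29 and -0.29 (pMF). The pLF libraries were below all the others, and pMF lay close to LF replicate 2. The difference was -0.42 (SE 0.10, limma adjusted p = 0.00266), with -0.62 (adjusted p = 0.00265) at low folate, where 61.5% of genes were called, and -0.21 (adjusted p = 0.206) at medium folate, where 63% were. Scaled to summed coverage in place of the median gene, it was -0.001 (adjusted p = 0.993), and the call was lost. That scaling moved the median of all genes from 0.03 to 0.45 and the share of called genes that were higher from 52.4% to 79.5%.

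For Fbln2 the same difference was -0.32 (SE 0.15, adjusted p = 0.0779), for Thbs3 0.11 (SE 0.09, adjusted p = 0.270) and for Fn1 -0.02 (SE 0.12, adjusted p = 0.915). With summed coverage as the scale, Thbs3 was called higher (0.53, adjusted p = 0.00297) and Fn1 as well (0.40, adjusted p = 0.0393), while Fn1 was called lower by the median over windows (-1.45, adjusted p = 5.35e-06). Fbln2 was called lower without pLF replicate 1 (-0.53, adjusted p = 0.000323). Against MF, the libraries labelled HF were higher in Thbs3 by 0.83 (adjusted p = 0.000179) and in Fn1 by 0.56 (adjusted p = 0.0114), with 57.8% of genes called in either direction. In the same comparison all 4 tested fibroblast and mural markers were higher, from 0.78 for Col1a2 to 3.32 for Acta2, and so was the neuronal Tubb3 (1.04). Per 1000000000 of coverage, Map2 was lower, at 155 and 182 against 324 and 385 in MF. Stmn2 was higher, at 262 and 239 against 61.2 and 35.2 in MF, and so was Dcx, at 34.4 and 32.4 against 14.3 and 11.8. The oligodendrocyte lineage genes Olig1 (-1.30) and Olig2 (-0.72) were lower. Of 3 tested astrocyte markers, Aldoc was higher (0.53), Aldh1l1 lower (-0.79) and Gja1 not called (-0.30, limma adjusted p = 0.0583). The untested Gfap was higher per 1000000000 of coverage, at 21.8 and 21.8 against 5.30 and 10.0 in MF. So was Aqp4, at 60.8 and 28.2 against 4.89 and 7.23. Cx3cr1 was the 1 tested microglial marker and was higher (0.81). Of the other microglial markers, C1qa, C1qb, Aif1 and Csf1r were listed in no library and Ptprc in pHF replicate 2 alone. Of 9 tested neural stem cell markers, 2 were higher and 3 lower, with Fabp7 (-2.14) and Slc1a3 (-1.15) among the lower ones. Per 1000000000 of coverage, this list went both ways. Nes was lower, at 1386 and 1547 against 2379 and 2000 in MF. Msi1 was higher, at 473 and 364 against 79.6 and 106 in MF. Hes5 was higher too, at 495 and 526 against 280 and 267, and Notch1 at 1134 and 1548 against 969 and 830. The part of these markers in the Thbs3 and Fn1 values was not tested. Thbs3 was lower in pHF than in the libraries labelled HF by 0.74 on the log2 scale (-0.74, adjusted p = 0.000273) and Fbn1 was higher by 0.41 (adjusted p = 0.0238), where 69.6% of genes were called. The Fbn1 direction was reversed when all cytosines listed in each library were used. The Fbn1 call was lost without pHF replicate 2 (0.17, adjusted p = 0.263), the Thbs3 call with summed coverage as the scale (-0.31, adjusted p = 0.154), and the Fn1 call against MF without MF replicate 1 (0.54, adjusted p = 0.0631) and in the last 1000 bases (0.28, adjusted p = 0.426). The difference between the fractions itself differed between the libraries labelled high (pHF and HF) and medium folate for Thbs3 and Fbn1 of the 4 genes, where 45.7% of genes were called, and between low and medium folate for no gene. The Fbn1 call did not hold in every fit that left out a replicate, and its value was smaller without pHF replicate 2, as given below. Between LF and MF, and between pLF and pMF, limma called no gene (0% of 4815), with 44 and 521 at an unadjusted p under 0.05. For pLF against pMF the count was 1244 without pLF replicate 2. Between pHF and pMF it called 40 genes (0.831%), none of them among the 5, and this count was 0 without pHF replicate 2 and 783 without pLF replicate 1.

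Coverage along the transcript differed between the fractions, and the gene-level values above depend on it. In polysome libraries the coverage of Fbn1, Fbln2, Thbs3 and Fn1 fell toward the 5′ end relative to total mRNA, as it did in most genes. The slope of log2 coverage per kilobase from the 3′ end was fitted in each library for 3499 genes. Its difference between polysome and total mRNA at low and medium folate was -0.59 (SE 0.09) for Thbs3, -0.54 (SE 0.07) for Fbln2, -0.53 (SE 0.09) for Fbn1 and -0.46 (SE 0.05) for Fn1, with limma adjusted p-values of 0.000365, 0.000141, 0.000478 and 5.76e-05. Of all genes, 76.3% were called, 65.8% lower and 10.5% higher, and the median difference was -0.40. For Bcam the difference was 0.25 (SE 0.14), given with no test because it is fitted on the coverage that its choice used. Between the libraries labelled high and medium folate the difference in slope itself differed for Thbs3, where 24.3% of genes were called.

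**Figure D5:**
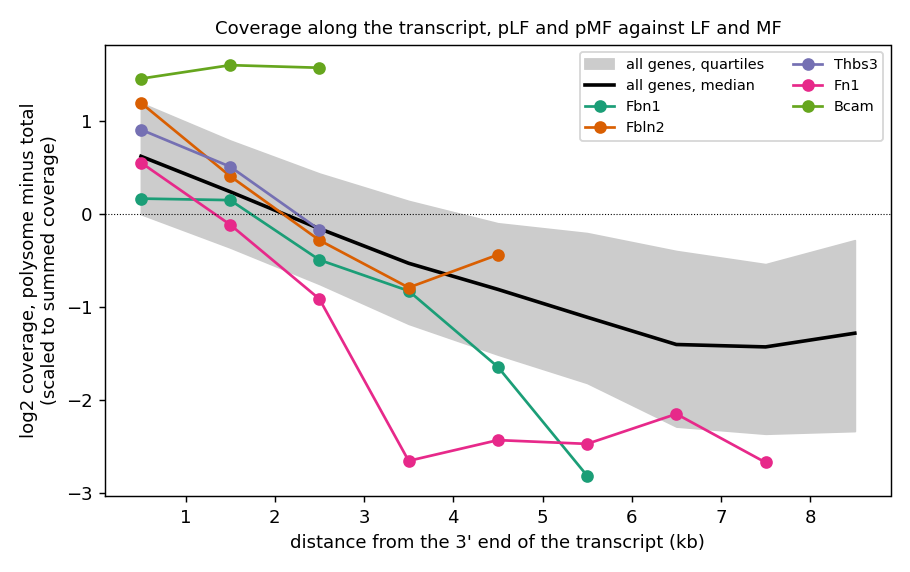
Difference in log2 coverage between polysome (pLF, pMF) and total mRNA (LF, MF), scaled to summed coverage (y axis), by distance from the 3′ end of the transcript in kilobases (x axis, bins of 1 kb). The black line is the median of all genes and the grey band their quartiles, and coloured lines are the 5 genes. Fn1 falls from 0.56 in the last kilobase to -2.67 in the bin from 7 to 8 kb.

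In the last kilobase of Fn1, polysome coverage scaled to summed coverage was above total mRNA by 0.56 log2 units. It was -0.91 from 2 to 3 kb and -2.65 from 3 to 4 kb, and the median of all genes in these bins was 0.62, -0.15 and -0.53. Fbn1 went from 0.17 in the last kilobase to -1.64 from 4 to 5 kb and -2.81 from 5 to 6 kb. Fbln2 went from 1.20 to -0.79 from 3 to 4 kb, and Thbs3 from 0.91 to -0.17 from 2 to 3 kb. Bcam was at 1.46, 1.60 and 1.58 in its 3 bins, with single windows from 0.64 to 2.41 and 1 window in the bin farthest from the 3′ end. The Fn1 site lay 1123 bases from the 3′ end, the Fbln2 site 1381, the Thbs3 site 2642 and the Fbn1 site 3268.

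When coverage was taken from the last 1000 bases alone, Fn1 was higher in polysome mRNA by 0.77 (SE 0.21, adjusted p = 0.00466) and Fbln2 by 0.30 (SE 0.10, adjusted p = 0.0164), where 68% of 2715 genes were called. Over the windows seen in all 12 libraries, neither gene had passed the test (-0.02 and -0.32). Thbs3 remained at 0.08 (adjusted p = 0.461), and Fbn1 and Bcam had too few covered windows there. This measure and the slope were chosen after the data were seen.

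The related genes were described through 4 lists, with coverage differences between polysome and total mRNA at low and medium folate, beside the background of 38.7% higher and 35.1% lower. Of 24 genes of microfibrils and elastic fibres, 13 were covered well enough to test, 7 were higher and 3 lower, and the median was 0.50 against 0.03 for all genes. Fbln7, an adhesive fibulin (2.36), Tgfb1, the growth factor stored on microfibrils (1.18), and Fbln5, an elastic fibre assembly protein (1.08), were highest. Tgfb1 was at 0.01 (adjusted p = 0.958) in the last 1000 bases. Fbn2, which encodes fibrillin-2 (-0.50), Fbn1 and Mfap2, which encodes a microfibril-associated protein (-0.30), were lower. None of these 3 was called when libraries were scaled to summed coverage. On that scale 8 of the 13 were higher and 0 lower, beside 2858 of all 4815 genes higher and 736 lower. In the last 1000 bases Mfap2 was lower (-0.75, adjusted p = 0.000501).

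Of 14 thrombospondin and matricellular genes 9 were tested, 2 were higher and 3 lower. Ccn1, a secreted regulator of adhesion (0.97), and Sparc, a collagen-binding glycoprotein (0.40), were higher. Sparcl1 (-1.17), Thbs1, which encodes thrombospondin-1 (-0.83), and Tnc, which encodes tenascin-C (-0.65), were lower. In the last 1000 bases Sparc was at -0.26 (adjusted p = 0.0244), opposite to its value over all windows. Tnc was not called there (-0.05, adjusted p = 0.765). Scaled to summed coverage, 5 of the 9 were higher and 2 lower, beside 2858 of all 4815 genes higher and 736 lower.

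Of 10 genes of fibronectin and its receptors 7 were tested, 1 was higher and 2 lower. In the last 1000 bases 5 were tested, 3 were higher and 1 lower, beside 963 of 2715 genes higher and 883 lower. The integrin chain gene Itga5, whose product pairs with β1 to bind fibronectin, was higher (0.81). Itgb1, the β1 chain itself (-0.89), and Itgav (-0.67) were lower. With summed coverage as the scale 5 were higher and the same 2 lower, beside 2858 of all 4815 genes higher and 736 lower.

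Apart from Bcam, whose choice used its coverage, the list of its laminin ligands and related adhesion receptors held 15 genes, of which 10 were tested, 1 was higher and 5 were lower, with a median of -0.45. Mcam, an immunoglobulin-family adhesion molecule (1.04), was the higher one. Lamc1, the laminin γ1 chain (-0.87), Lama5, the α5 chain to which Bcam binds (-0.75), and Dag1, which encodes dystroglycan (-0.61), were lower. In the last 1000 bases, Lama5 (0.91, adjusted p = 0.000137) and Dag1 (1.05, adjusted p = 2.22e-07) were higher, opposite to their values over all windows, and Lamc1 was at -0.01 (adjusted p = 0.960). Scaled to summed coverage, 4 of the 10 were higher and 1 lower, beside 2858 of all 4815 genes higher and 736 lower.

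Over the 12 libraries, the centred log2 coverage of Bcam was most like that of Nxn (r = 0.988) and Slc9a3r2 (r = 0.978), and that of Thbs3 like Col18a1, a basement membrane collagen (r = 0.966), and Aldh7a1 (r = 0.956). Fn1 ran most like Slit3, a secreted guidance protein (r = 0.945), and Optn (r = 0.895), and Fbn1 like Serinc3 (r = 0.919) and Ermp1 (r = 0.910). Fbln2 ran most like Lama5 (r = 0.899) and Igsf3 (r = 0.884). These are descriptions over libraries that share fraction and group.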

How the data were processed

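Adult NSC poly(A) RNA was bisulfite-converted and sequenced in 12 libraries. Per the study's methods, the authors trimmed reads with fastp, used meRanGh for alignment to mm10 and meRanCall for calling. The submitters' processing notes name R 4.1.1. The deposited counts give coverage and unconverted reads per cytosine, and the deposited fraction is the methylation level. The lowest listed coverage is 10 and every listed cytosine has 1 or more unconverted reads, before the authors' later filters.

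The members and the gene lists were chosen with earlier results of these data known. Cytosines without a variant call were used. Gene coverage was the mean over windows of 100 bases seen in all 12 libraries, with at least 5 windows. The unconverted share used reads over reference cytosines in such windows of annotated exons, with at least 10 unconverted reads in every library. Both replaced the planned set of cytosines listed in all 12 libraries, which held 1 of the 5 genes, and were chosen after the data were seen, as were the slope (windows of 250 bases, at least 6) and the last 1000 bases. Tests used limma 3.58.1 in R 4.3.3 (trend, 6 groups, threshold 0.05, 0.5 added to both counts for log odds), and intervals used SciPy. The limma steps were tested on simulated data. Named genes were the members, up to 3 called genes per direction from each list with the largest coverage change, and the 2 sites or genes with the highest Pearson r. The direct comparison of replicate numbers gave no pairing. Each library's coverage was also set against the site list published with the data, after the data were seen. Coverage of each site is given with its values.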

Additional observations from a re-analysis of the deposited data

Results flagged for a closer look

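The change in coverage between polysome and total mRNA differed between the libraries labelled high and medium folate in 2 of the 4 genes other than Bcam, by the interaction term of limma adjusted over 4815 genes, of which 45.7% were called. The difference of differences was -1.40 log2 units for Bcam, given with no p because its choice used its coverage, -0.99 for Thbs3 (adjusted p = 0.00117) and 0.62 for Fbn1 (adjusted p = 0.0256). For Fbn1 the call was lost in 4 of the 8 fits that left out a replicate and without pHF replicate 2 (0.38). These 8 fits left out a library of LF, MF, pLF or pMF. LF and pLF are not part of this difference, so leaving them out could not move its value. No single library labelled HF was left out. The slope of Thbs3 coverage per kilobase also differed, by 0.72 (adjusted p = 0.0236), which was 1 gene of the 4, with 24.3% of 3499 genes called. All 4 values rest on the libraries labelled HF, which stood apart from LF and MF over all genes and whose counts did not match the published site list. Their part in these values was not tested.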

How the results depend on the processing

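For the differences in level between polysome and total mRNA, leaving out a replicate gave 20.3 to 21 points for Fbln2, 11 to 15.2 for Fbn1, 3.39 to 4.51 for Fn1 and 29.1 to 31.4 for Thbs3. Between pHF and the libraries labelled HF they were 17.5, 5.27, 1.24 and 17.6, and for Fn1 5.09 at low and 2.81 at medium folate. A minimum level of 20% left 3 sites. Called genes numbered 3553 (polysome against total mRNA), 2961 (pLF against LF), 3034 (pMF against MF), 3351 (pHF against the libraries labelled HF) and 2785 (these against MF). With cytosines listed in all 12 libraries they numbered 638, 543, 539, 638 and 578, with at least 30 windows 182, 146, 147, 168 and 134, and in the last 1000 bases 1846, 1454, 1479, 1738 and 1588, where fewer genes were tested. All cytosines of each library gave 1665 for the libraries labelled HF against MF and 2 for pLF against pMF, where leaving out a replicate gave 0 to 1244, with 1244 without pLF replicate 2. Between pHF and pMF, the 40 calls became 10 (cytosines in all 12), 0 (all cytosines), 2 (median over windows), 12 (summed coverage), 25 (quantile), 2 (30 windows), 7 (without the libraries labelled HF), 12 (last 1000 bases) and 0 to 783 when a replicate was left out, with 783 without pLF replicate 1, 782 without pLF replicate 2 and 0 without pHF replicate 2. With the replicate block this count was 24 and the count for polysome against total mRNA 3552. Replicate numbers did not pair the samples (r = -0.434 to 0.224 over 15 pairs of groups), and the block changed no call of the 5 genes. The unconverted share gave 258 calls over cytosines listed in all 12 libraries, and for Bcam -0.37 to 0.075 when a replicate was left out, the latter without LF replicate 2. Directions reversed in coverage for Fbln2 (0.10 by summed coverage, 0.30 in the last 1000 bases), Fn1 (0.40 and 0.77, and -0.16 to 0.13 when a replicate was left out, above 0 without LF replicate 1, pLF replicate 2 or pMF replicate 1) and Fbn1 (pMF against MF, 0.042 by the median over windows and 0.25 by summed coverage; pHF against the libraries labelled HF, -0.15 over all cytosines). The causes were not tested. Bcam was at 1.03 to 1.27 when a replicate was left out. Across the alternatives for coverage of the 5 genes, 238 values kept direction and call, 18 lost a call, 7 gained one and 10 reversed. The kept values include fits that left out a library outside the comparison, which could not move the value. Between pHF and the libraries labelled HF, all 8 fits that left out a replicate gave 0.41 for Fbn1 and -0.74 for Thbs3. Depth leaves 13 to 113 reads at the Bcam site.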
